A study of Callithrix jacchus with 71 samples.

Results

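Marmoset induced neural stem cell-like cells (iNSLCs) were profiled cell by cell, and the cells fall into 2 sets by the number in their sample label: 27 iNSLCs numbered 25 to 56 and 38 iNSLCs numbered 57 to 96, of 65 iNSLCs and 71 cells in all. The boundary between 56 and 57 was chosen by measured values, since it was set by eye from the expression profiles of these same cells. The marker genes IGFBPL1, PCNP, MORF4L1, KIFC2 and ZNF316 were likewise selected on these values. Every difference between the sets is therefore a description, and no test was made. The sample labels give the same source, E01F A2 iNSLC, to all 65 cells, so the cells of a set share a culture and are not replicates. The labels name no plate, run or library batch, and they do not say that the numbers are wells of the 96-well plate into which cells were sorted. A difference in library preparation and a difference in cell state cannot be told apart here.

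The iNSLCs of both sets came from embryonic fibroblasts of the marmoset E01F. These had received the EP-A episomal vectors, which carry a mouse dominant-negative p53 fragment, mp53DD, beside the human reprogramming factors LIN28, L-MYC, KLF4, SOX2 and OCT4, and were grown to passage 1 in NSM, a medium first used for naive-state pluripotent cells. At that passage such cells still held the episomes. The series also holds 4 ESCs of clone no. 40, an E01F A-2-2 iPSC (1 cell) and an E01F fibroblast (1 cell), which serve here only as points of reference. Libraries were made by RamDA-seq, a method that primes single-cell RNA along its whole length. The unit is the normalized count of the authors, that is, reads multiplied by a factor that differs from cell to cell.

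Neural stem cells divide and keep a set of transcription factors and Notch signals active, and some of their daughters turn on proneural genes and become neurons. A snapshot of a dividing culture thus holds cells in different phases of the cell cycle and cells at different steps toward neurons. Genes of such passing states are high in a few cells and silent in the rest, whereas genes for ribosomes, splicing or protein folding are active in every cell. A mean over cells can differ between sets for either reason, so the spread over cells is given with each mean.

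The level of expression is compared as the log2 ratio of the mean of cells 57 to 96 over the mean of cells 25 to 56, each after a pseudocount of 1 was added. A positive ratio means a higher mean in cells 57 to 96. Of 23561 named genes, 6118 reached a mean of 10 over the 65 iNSLCs and were kept. Of these, 475 (7.76%) had a mean at least 2-fold higher in cells 57 to 96 and 380 (6.21%) had a mean at least 2-fold higher in cells 25 to 56. These shares follow from a boundary drawn on the same profiles. The mean used for the filter pools both sets, so a gene could be kept through the set where it was high. KIFC2, with means of 2.66 in cells 25 to 56 and 18.4 in cells 57 to 96, is such a gene. ABI1, with means of 22.3 and 3.93, is such a gene on the other side. The larger set, cells 57 to 96, weighs more in the pooled mean, and the part of this in the counts was not tested. The genes at the edge of the threshold were TSEN34 (log2 ratio 1.0003) just inside and TTYH3 (0.9990) just outside on the first side, and SEC61A2 (-1.0012) and CDC73 (-0.9994) on the second. The median log2 ratio of all kept genes was 0.13, and this value is the reference point for every gene group below. This median rose with level, from -0.03 in the 10% of genes with the lowest means to 0.29 in the 10% with the highest. Lists of abundant genes are thus set against a mixed background. It depends on the authors' scaling: with every cell set to the same total, the median was -0.04, and the counts became 272 and 558. The share of the past-threshold genes that lay on the side of cells 57 to 96 was thus 55.6% with the authors' values and 32.8% with equal totals.

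Cells 31 and 69 stood apart from their sets. For each cell the summed level of the 475 genes was divided by that of the 380 genes, which repeats the selection and is only a description. The log2 value of this quotient was -1.60 to -0.19 in the other cells numbered 25 to 56 and 1.02 to 2.64 in the other cells numbered 57 to 96. It was 0.48 in cell 31 and 0.00 in cell 69. Both cells were shallow, with 109907 and 82268 reads on genes, and cell 69 had the fewest of all iNSLCs. Cells 30 and 85, with 95144 and 98507 reads, were at -1.14 and 1.10. The part of depth was not tested. Without cells 31 and 69, a step chosen after the data were seen, 537 and 437 genes lay past the threshold in place of 475 and 380. These cells were picked by the quotient of the called genes, so higher counts follow from the choice and lend the boundary no support. In runs of 8 numbers the median quotient was -0.75, -0.94, -0.73 and -0.94 up to cell 56, and 2.12, 2.15, 1.93, 1.60 and 1.77 from cell 57 on. The values differed most between the runs on either side of the boundary. The cells numbered below 25 are of other types, so number and cell type cannot be told apart there. Their quotient, over genes selected on the iNSLCs, was 2.38 in the fibroblast, 1.27 to 2.99 in the ESCs and 0.69 in the iPSC. It does not place them with either set.

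The 2 sets also differed in depth. On genes, cells 25 to 56 had a median of 357910 reads (95144 to 695241), and cells 57 to 96 a median of 208746 (82268 to 473169). Although they were read more deeply, cells 25 to 56 had fewer genes with a read, at 7574 to 12524 with a median of 10061. Cells 57 to 96 had 7908 to 13058 detected genes with a median of 11333.5. After every cell was thinned to 131531 reads, which 24 and 34 cells reached, the medians were 9310 and 10516 genes and the ranges, 7004 to 10836 and 8582 to 11250, still overlapped. The part of this difference in the ratios below was not tested. With the thinned cells 568 and 462 genes lay past the threshold, and 421 and 347 of these were among the 475 and 380. Thinned values were scaled back to each cell's normalized total. The 7 shallowest cells, with cells 31 and 69 among them, were left out. These counts therefore cannot show what depth adds to the ratios.

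**Figure D1:**
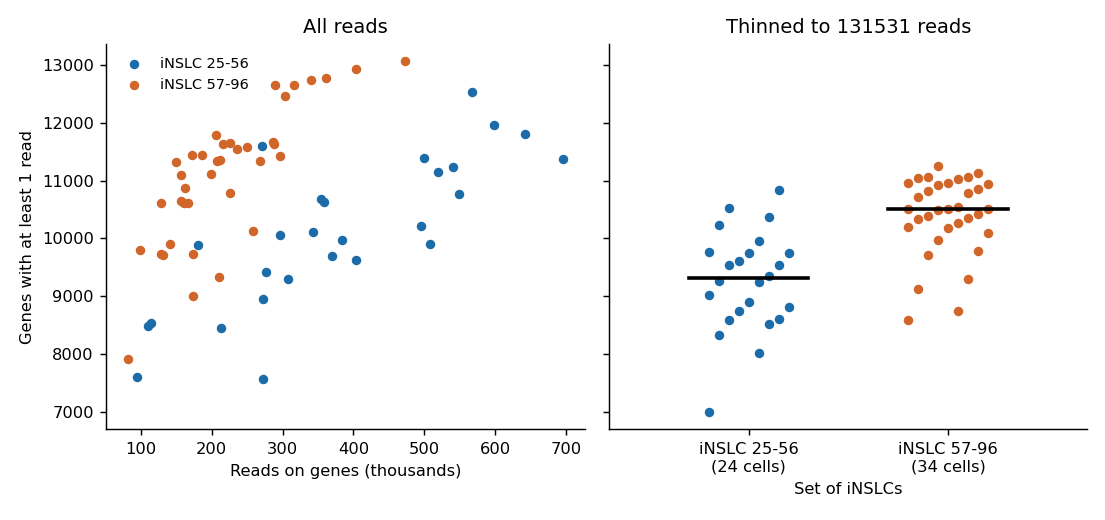
Left, genes with at least 1 read (y axis) against reads on genes (x axis) for each iNSLC. Right, detected genes of the 24 and 34 cells that reached 131531 reads after thinning to that number, with the median as a bar (9310 for cells 25 to 56 and 10516 for cells 57 to 96). At a given depth most cells numbered 57 to 96 lie above those numbered 25 to 56, and the ranges overlap.

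The 5 marker genes show 2 kinds of difference. PCNP encodes a nuclear protein with a PEST region. Its normalized count was 23.6 to 194 in cells 25 to 56 (median 78.1) and 2.30 to 73.8 in cells 57 to 96 (median 14.4). It was read in all 65 cells. The means were 84.3 ± 44.8 (SD, n = 27 cells) and 17.1 ± 13.2 (SD, n = 38 cells), a log2 ratio of -2.24. The sets overlapped in few cells: 16 cells of the first set lay above every cell of the second, and 32 of the 38 cells of the second lay below every cell of the first. Cells 31 (23.6) and 69 (73.8) are the lowest and the highest of their sets. Without them the ratio was -2.40, a shift that leaving out these extremes must give.

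MORF4L1 encodes the chromodomain protein MRG15 of the NuA4 histone acetyltransferase complex. Its normalized count was 9.45 to 983 in cells 25 to 56 (median 259) and 0 to 190 in cells 57 to 96 (median 70.9). The lowest value of the first set is again that of cell 31, where 1 read is worth 2.36. The means were 340 ± 256 and 76.1 ± 35.7 (SD), a log2 ratio of -2.14, and 17 of the 27 cells lay above every cell numbered 57 to 96. Next to the boundary the values were 186 and 954 in cells 55 and 56 and 66.6 and 48.6 in cells 57 and 58. In the cells of other types MORF4L1 was 52.2 in the fibroblast, 2.55 to 80.4 in the ESCs and 145 in the iPSC. All lay within the range of cells 57 to 96, and all but the ESC at 2.55 also lay within that of cells 25 to 56.

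ZNF316, a C2H2 zinc finger gene, went the other way. Its normalized count was 0 to 40.7 in cells 25 to 56 (median 5.64) and 0 to 172 in cells 57 to 96 (median 33.8). The means were 7.65 ± 8.38 and 42.9 ± 37.6 (SD), a log2 ratio of 2.34. It lay above every cell of the first set in 17 of the 38 cells, and cells 57 to 64 had the highest mean of all runs, 83.2.

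KIFC2, a kinesin motor gene, was near the limit of detection in cells 25 to 56. Its normalized count was 0 to 20.8 there (median 0) and 0 to 68.4 in cells 57 to 96 (median 15.0). A read was found in 48.1% of the first set (exact Clopper-Pearson 95% interval 28.7% to 68.1%) and in 84.2% of the second (68.7% to 94.0%). These intervals take the cells of a set as independent draws and cover the sampling of cells only. The means were 2.66 ± 4.98 and 18.4 ± 16.9 (SD), a log2 ratio of 2.41, and 14 of the 38 cells lay above every cell numbered 25 to 56. The share went with the level although the second set had fewer reads.

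IGFBPL1, which encodes a protein related to the IGF-binding proteins and is known from young neurons, had the lowest ratio of all kept genes, at -3.71, but it is not a gene of the whole set. Its median was 0 normalized counts in both sets. Cell 27 reached 836, cell 40 reached 398, cell 25 reached 363 and cell 36 reached 238, and no cell numbered 57 to 96 was above 84.3. A read was found in 37.0% of cells 25 to 56 (19.4% to 57.6%) and in 39.5% of cells 57 to 96 (24.0% to 56.6%). The means of 71.2 ± 187 and 4.52 ± 14.1 (SD) therefore differ through 4 cells. Without cells 25 to 32, which hold 2 of these, the ratio was -2.76.

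**Figure D2:**
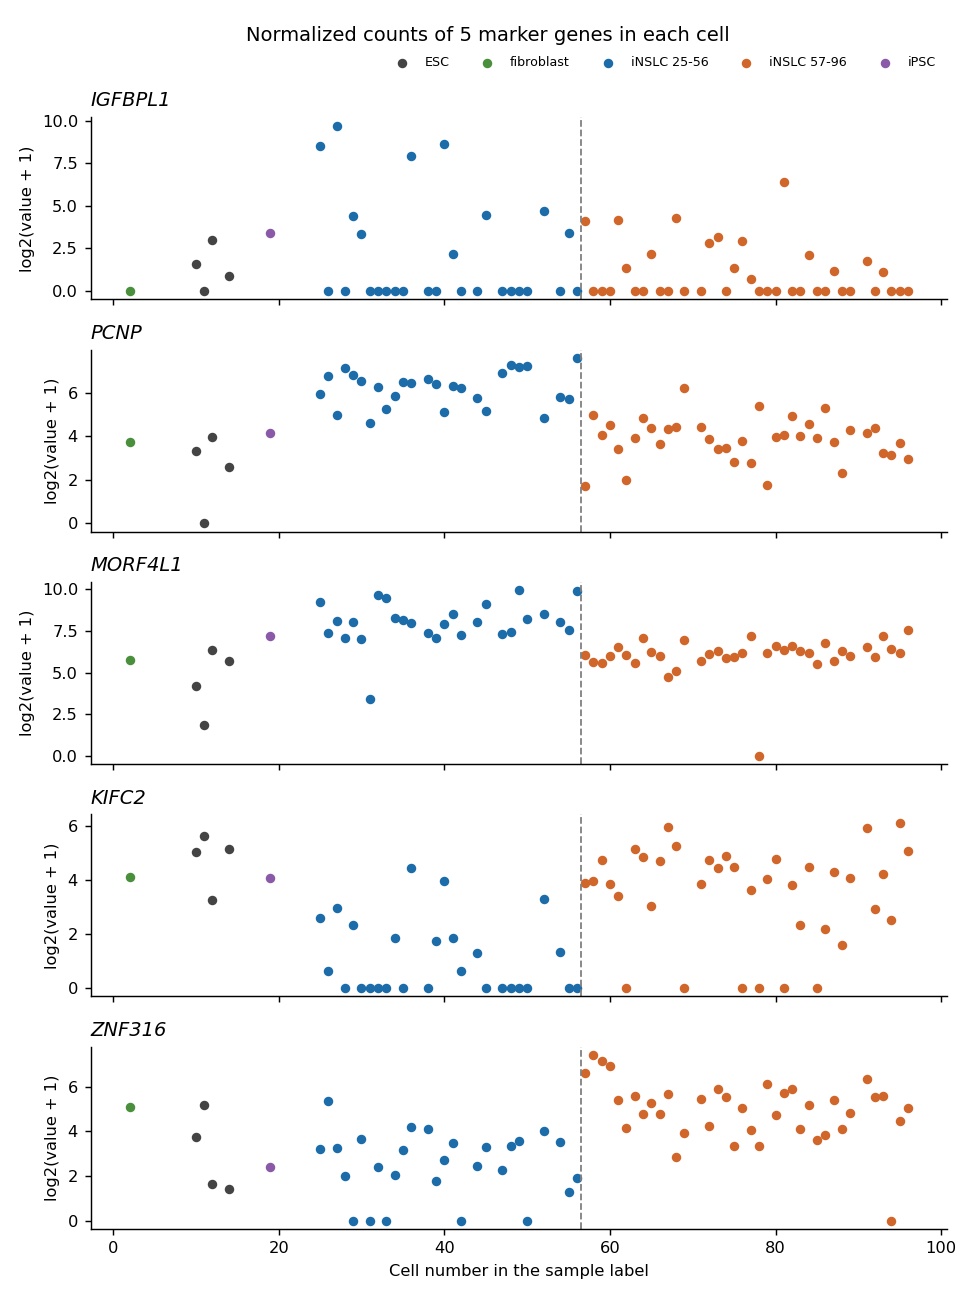
Levels of the 5 marker genes as log2 of the normalized count plus 1 (y axis) against the number in the sample label (x axis), 1 point per cell for all 71 cells, coloured by set or cell type, with the boundary between 56 and 57 as a dashed line. PCNP and MORF4L1 step down and KIFC2 and ZNF316 step up at the line, while IGFBPL1 is high in 4 cells to the left of it and at 0 in most cells on both sides.

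The same 2 kinds of difference run through the other genes. No gene separated the sets completely. Of the 380 genes higher in cells 25 to 56, 53 (13.9%) had at least 50% of those cells above every cell numbered 57 to 96. Of the 475 genes higher in cells 57 to 96, 31 (6.53%) had at least 50% of the cells above every cell numbered 25 to 56. When the highest cell of each set was left out gene by gene, a step chosen after the data were seen, 304 of the 380 and 467 of the 475 genes stayed past the threshold. A single cell weighs more in a mean of 27 than of 38 cells, and the step moved the median of all genes to 0.19. At most 1 cell lay above the whole other set for 16 of the 380 and 31 of the 475 genes.

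**Figure D3:**
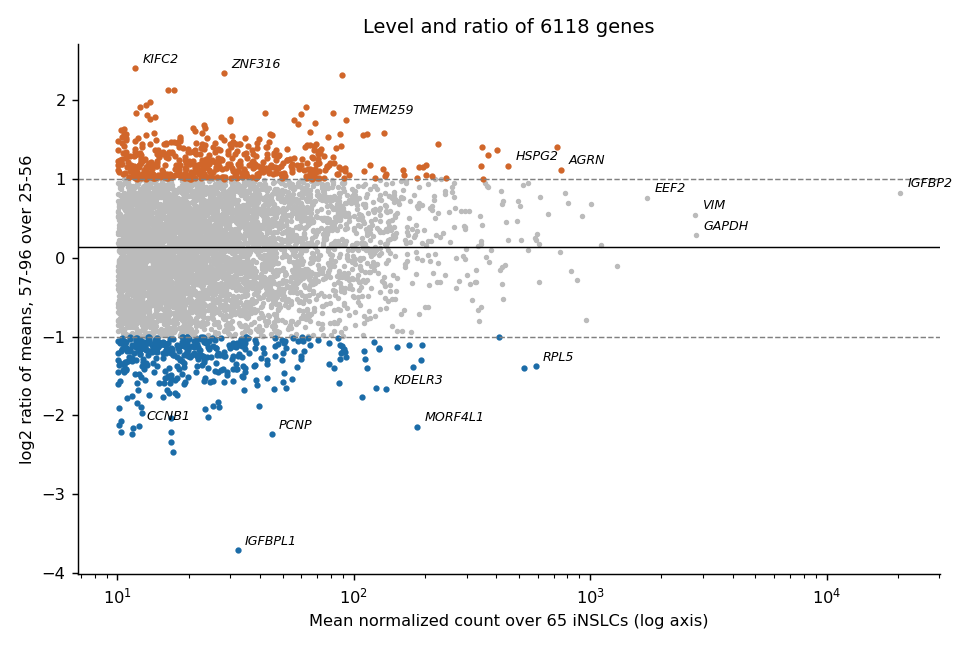
Log2 ratio of the set means (y axis, cells 57 to 96 over cells 25 to 56) against the mean normalized count over 65 iNSLCs (x axis, log axis) for 6118 genes. Dashed lines mark 2-fold, the solid line the median of 0.13, orange points the 475 genes and blue points the 380 genes past the threshold. IGFBPL1 lies far below the rest at -3.71, and the most abundant gene, IGFBP2, is at 0.82.

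Among the genes with the largest ratios toward cells 25 to 56, ABI1 and MAT2B behaved like PCNP. ABI1, an adaptor of the Abl kinase that acts on actin, was 0 to 90.9 normalized counts in cells 25 to 56 (median 19.0) and 0 to 11.5 in cells 57 to 96 (median 3.74), with a log2 ratio of -2.24 and 18 cells above the whole second set. MAT2B, a regulatory subunit of the enzyme that makes S-adenosylmethionine, was 0 to 96.3 (median 18.5) and 0 to 14.2 (median 4.06), with a ratio of -2.17 and 17 such cells. GINM1, AIDA, RANBP6 and ECT2 leaned on single cells. GINM1, a membrane glycoprotein gene, had a ratio of -2.21, but 73.8% of its summed level in cells 25 to 56 was in cell 33, at 637 normalized counts, and without the highest cell of each set the ratio was -0.53. Cell 33 also held 53.3% of AIDA (ratio -2.34, and -1.50 without the highest cells), and cell 45 held 54.8% of RANBP6 (-2.21, and -1.27). ECT2, which directs cytokinesis, was at 530 in cell 47, with a ratio of -2.47, and -1.47 without the highest cells.

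On the other side, SBNO2, REXO1, IRS2 and ELFN1 were higher across the set. SBNO2, a transcriptional coregulator gene, was 0 to 49.7 normalized counts in cells 25 to 56 (median 14.4) and 7.91 to 136 in cells 57 to 96 (median 56.0). Its log2 ratio was 1.84, and 26 of the 38 cells lay above all of the first set. REXO1, an exonuclease gene, had a ratio of 1.84 with medians of 3.48 and 14.9. IRS2, a substrate of the insulin and IGF receptors, had a ratio of 1.98 with medians of 2.23 and 16.7. ELFN1, a synaptic leucine-rich repeat gene, had a ratio of 1.84 with medians of 20.3 and 84.9, and in each of these 3 genes 18 cells lay above all of the first set. The linker histone gene H1-4 had a ratio of 1.92, with 0 to 112 (median 14.4) and 7.66 to 335 (median 72.3).

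Single high cells also added to ratios on this side. APCDD1, a Wnt inhibitor gene, was at 694 normalized counts in cell 75, which held 70.2% of its summed level in cells 57 to 96. Its ratio was 2.12, and 0.79 without the highest cell of each set. NPPC, which encodes C-type natriuretic peptide, was at 528 in cell 57, with a ratio of 2.13, and 1.34 without the highest cells. SLC7A5, a transporter of large neutral amino acids, was at 1047 in cell 64, with a ratio of 1.82, and 1.43 without the highest cells. Its medians were 10.2 and 46.8, and 37 of 38 cells lay above the median of the first set.

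The genes with the cleanest separation were abundant ones with moderate ratios, and they were picked after their values were seen. KDELR3, a receptor that returns proteins to the endoplasmic reticulum, was 39.2 to 326 normalized counts in cells 25 to 56 (median 238) and 25.5 to 129 in cells 57 to 96 (median 69.8). Its log2 ratio was -1.66, and 25 of the 27 cells lay above the whole second set. The basement membrane proteoglycan genes HSPG2 and AGRN were higher in cells 57 to 96. HSPG2 was 40.0 to 480 (median 246) and 146 to 1010 (median 582), with a ratio of 1.17, and AGRN was 122 to 785 (median 484) and 387 to 2037 (median 894), with a ratio of 1.12. In these genes 29 and 28 of the 38 cells lay above all of the first set. TMEM259, a gene of the endoplasmic reticulum membrane, was 4.59 to 90.3 (median 38.3) and 25.4 to 303 (median 122), with a ratio of 1.75 and 28 such cells. IGFBP2, the most abundant gene, had means of 14147 ± 6367 and 25039 ± 10059 (SD) and a ratio of 0.82, under the threshold.

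A smaller share of the ribosome list than of all genes passed the threshold, but its median lay toward cells 25 to 56. The list of cytosolic ribosomal proteins had 77 genes in the table, of which 73 were kept, and its median log2 ratio was -0.12 against 0.13 for all genes. For the 10% of genes with the highest means the median was 0.29. Of the 73 members, 45 (61.6%) had a ratio below 0, against 43.3% of all genes. The summed level of the list hardly differed, with medians over cells of 13357 and 13016 normalized counts. There were 4 members (RPL5, RPL12, RPL15, RPS13), or 5.48%, at least 2-fold higher in cells 25 to 56, against 6.21% of all genes, and 2 (RPS27, RPL35), or 2.74%, at least 2-fold higher in cells 57 to 96, against 7.76%. RPL5, a protein of the large subunit, was 354 to 2802 in cells 25 to 56 (median 853) and 124 to 639 in cells 57 to 96 (median 361), with a ratio of -1.38 and 22 of 27 cells above the whole second set. RPS27, a protein of the small subunit, had means of 34.2 and 75.7 and a ratio of 1.12.

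Because both genes were read in every iNSLC, their quotient within a cell hardly depends on the scaling. The log2 quotient of RPS27 over RPL5 was -6.17 to -2.21 in cells 25 to 56 (median -4.78) and -3.65 to -0.35 in cells 57 to 96 (median -2.22). It was below the whole second set in 26 of the 27 cells. For RPL35 over RPL12 it was -3.79 to -0.65 (median -2.26) and -1.52 to 1.36 (median 0.12), with 34 of the 38 cells above the whole first set. These pairs were picked as the extremes, so their shift is a description. For RPLP0 over RPSA, which are not extremes, the medians were 0.997 and 1.33, and 4 of the 38 cells lay above the whole first set. Ribosomal protein genes have many near-identical copies in primate genomes, and how reads shared between copies were counted is not stated, so single values are uncertain.

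**Figure D4:**
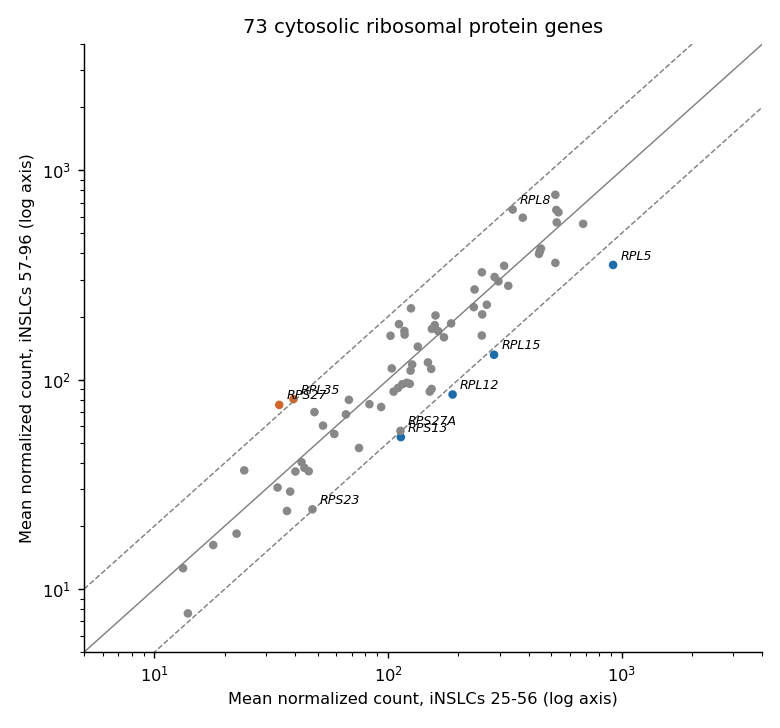
Mean normalized counts of 73 cytosolic ribosomal protein genes in cells 25 to 56 (x axis) and in cells 57 to 96 (y axis), both on log axes, with equality as a solid line and 2-fold as dashed lines. Most genes lie near equality, 4 lie below the lower line (blue) and 2 above the upper line (orange).

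The median ratios of translation factors, splicing factors and chaperones lay below that of all genes, at shares of called genes to be read against 6.21% (cells 25 to 56) and 7.76% (cells 57 to 96) of all genes. Of 42 kept initiation and elongation factors, 7 (16.7%) were at least 2-fold higher in cells 25 to 56 and 1 (2.38%), EEF1A2, in cells 57 to 96, with a median of -0.26. Their summed level hardly differed, with medians over cells of 5354 and 5445 normalized counts. EIF4G2, which supports cap-independent initiation, was 28.3 to 362 (median 193) and 21.5 to 119 (median 64.2), with a ratio of -1.40 and 22 of 27 cells above the whole second set. EEF2, which moves the ribosome along the mRNA, went the other way under the threshold, with medians of 1264 and 2018, a ratio of 0.76 and 22 of 38 cells above the whole first set. Of 44 splicing factors, 5 (11.4%) were at least 2-fold higher in cells 25 to 56 and 1, SF3A2, in cells 57 to 96 (median -0.22), and the summed levels had medians of 2588 and 1981. The RNA-binding proteins HNRNPH1 (ratio -1.59) and HNRNPU (-1.30) had 19 and 18 of 27 cells above the whole second set. Of 18 chaperones 2 (11.1%) were at least 2-fold higher in cells 25 to 56 and 0 in cells 57 to 96 (median -0.32), led by the co-chaperone DNAJA1 (-1.43). Of 15 tRNA synthetases the counts were 2 (13.3%) and 0 (median -0.32), with LARS1 at -1.21, and the summed levels had medians of 414 and 422.

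Hypoxia genes had a median ratio below that of all genes and glycolysis genes lay on both sides. Cells that lack oxygen raise HIF targets, among them enzymes of glycolysis. Of 14 kept hypoxia genes, 2 (14.3%) were at least 2-fold higher in cells 25 to 56, against 6.21% of all genes, and 0 in cells 57 to 96, against 7.76%, so the counts say little, and the median was -0.49. INSIG2, which restrains sterol synthesis, was 0 to 136 (median 8.92) and 0 to 56.7 (median 4.54), with a ratio of -1.59, and the collagen hydroxylase gene P4HA1 was at -1.53. The 4 members with a mean of at least 100 had a median of 0.06, against 0.28 for all genes with such a mean. DDIT4 was at 0.36, VEGFA at 0.32, BNIP3 at -0.19 and BNIP3L at -0.68. Of 21 glycolysis genes, 1 lay past the threshold on each side and the median was 0.12. LDHA, which makes lactate, was 49.4 to 813 (median 187) and 7.16 to 372 (median 82.5), with a ratio of -1.13, while PFKL, the liver-type phosphofructokinase gene, was at 1.02 and GAPDH at 0.29. Of 33 genes of oxidative phosphorylation the counts were 1 and 1 (median -0.10), with the complex I gene NDUFC2 at -1.72 and the ATP synthase gene ATP5F1D at 1.24.

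Genes of mitosis had the lowest median of any list, -0.87. Of 17 kept members, 16 had a ratio below 0, 6 (35.3%, against 6.21% of all genes) were at least 2-fold higher in cells 25 to 56 and 0 in cells 57 to 96. This rests on few cells. The summed level was 10.8 to 5999 normalized counts in cells 25 to 56 (median 167) and 29.0 to 2943 in cells 57 to 96 (median 81.1), and it was at least 500 in 7 of 27 and 7 of 38 cells. Cell 47 alone had 5999, followed by cell 86 of the other set with 2943 and cell 41 with 2875. Without cells 41 to 48 only 9 members kept a mean of at least 10, and their median was 0.05. With medians over cells in place of means the list median was -0.17. CCNB1, cyclin B1, reached 267 (cell 31), 209 (cell 47) and 88.2 (cell 41), against a median of 1.35 in cells 25 to 56 and 1.88 in cells 57 to 96. Its ratio of means was -2.13, and without cells 31 and 69 its mean fell under 10. MKI67, a marker of dividing cells, had a ratio of -0.43. The kinesins, several of which act in mitosis, had a median of -0.38, with KIFC2 (2.41), KIF7 (1.59) and KIF26B (1.23) at their upper end. Of 23 kept kinesins, 5 (21.7%, against 7.76% of all genes) were at least 2-fold higher in cells 57 to 96. In cells 25 to 56 it was 3 (13.0%, against 6.21%). The summed level of the kinesins had medians over cells of 855 in cells 25 to 56 and 948 in cells 57 to 96. Without cells 41 to 48 the median ratio of the kinesins was 0.16, when that of all genes was 0.17.

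The DNA replication list had a median near that of all genes. Of 15 kept genes, 2 (13.3%, against 6.21% of all genes) were at least 2-fold higher in cells 25 to 56. In cells 57 to 96 it was 1 (6.67%, against 7.76%), so the counts say little. The median was 0.10. The polymerase gene POLE was at 1.17, and TYMS, the thymidylate synthase gene, had close means of 127 and 132.

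Neural stem cell genes leaned toward cells 57 to 96. Of 21 kept genes, 5 (23.8%, against 7.76% of all genes) were at least 2-fold higher there and 0 in cells 25 to 56, and the median was 0.55. The Notch target HES5 had a ratio of 1.40, with 0 to 74.0 (median 1.15) and 0 to 162 (median 17.3). The receptor NOTCH1 was 58.3 to 475 (median 214) and 82.0 to 1281 (median 387), just past 2-fold, and 12 of 38 cells lay above all of the first set. The factor genes ZIC1 and POU3F3 were at 1.38 and 1.08, the RNA-binding protein gene MSI1 at 1.12, and SOX2, which the vectors also carry, at 0.87. The intermediate filament gene NES was 46.9 to 341 (median 170) and 100 to 545 (median 318), at 0.89, and 17 cells lay above all of the first set. FABP7 (-0.98) and CDH2 (-0.51) lay on the other side under the threshold, and PAX6 was at 0.03. With equal totals the counts were 2 and 1, beside 272 and 558 of 6216 genes in all. The list median was then 0.38, still above the -0.04 of all genes.

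Some proneural and neuroblast genes were carried by a few cells, and others were read in nearly every cell. Of 8 kept members, 2 (25%) were at least 2-fold higher in cells 25 to 56, IGFBPL1 and the Notch ligand gene DLL3. In cells 57 to 96 it was 1 (12.5%). The shares over all genes were 6.21% and 7.76%, and so short a list says little. DLL3 was at 405 normalized counts in cell 25, which held 77.7% of its level in that set, and its ratio of -2.13 comes from that cell. DCX, doublecortin of migrating neuroblasts, was at 349 in cell 27, with medians of 12.0 and 9.51. The Notch ligand gene DLL1 was read in all 65 cells, with medians of 16.8 and 48.9 and a ratio of 0.85, and TAGLN3, a gene of young neurons, had medians of 41.3 and 46.5. The highest summed levels of the list belonged to cells 25 (2082), 27 (1835), 57 (1767) and 40 (1101).

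Other lists were mixed or short, and the shares over all genes were 7.76% for cells 57 to 96 and 6.21% for cells 25 to 56, so that 1 or 2 genes of a short list say little. Of 10 immediate early genes, induced within minutes of a stimulus such as handling, 2 were at least 2-fold higher in cells 57 to 96 and 0 in cells 25 to 56, with a median of 0.71. JUN was 0 to 54.1 (median 13.3) and 2.42 to 301 (median 32.2), at 1.40, and JUND was at 1.21, while KLF6 was at -0.61. Of 14 cholesterol synthesis genes, 3 (21.4%) were at least 2-fold higher in cells 25 to 56 and 0 in cells 57 to 96 (median -0.35): HMGCS1 (-1.62), SC5D (-1.52) and MSMO1 (-1.21), all of one pathway in which FDPS was at 0.97. Of 103 numbered zinc finger genes, 19 (18.4%) were at least 2-fold higher in cells 57 to 96 and 4 (3.88%) in cells 25 to 56 (median 0.43). Over the 296 with a mean of at least 1, however, the median was -0.01, against 0.04 for all genes with such a mean. The NuA4 and MRG list had 12 members, with MORF4L1 and its relative MORF4L2 (-1.51) past the threshold on the one side and EP400 at 0.85 on the other. RNA polymerase II and Mediator had 1 gene higher in cells 57 to 96 and 2 in cells 25 to 56 among 21 (median 0.06), and the p53 targets 1 and 2 among 10 (median 0.01).

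**Figure D5:**
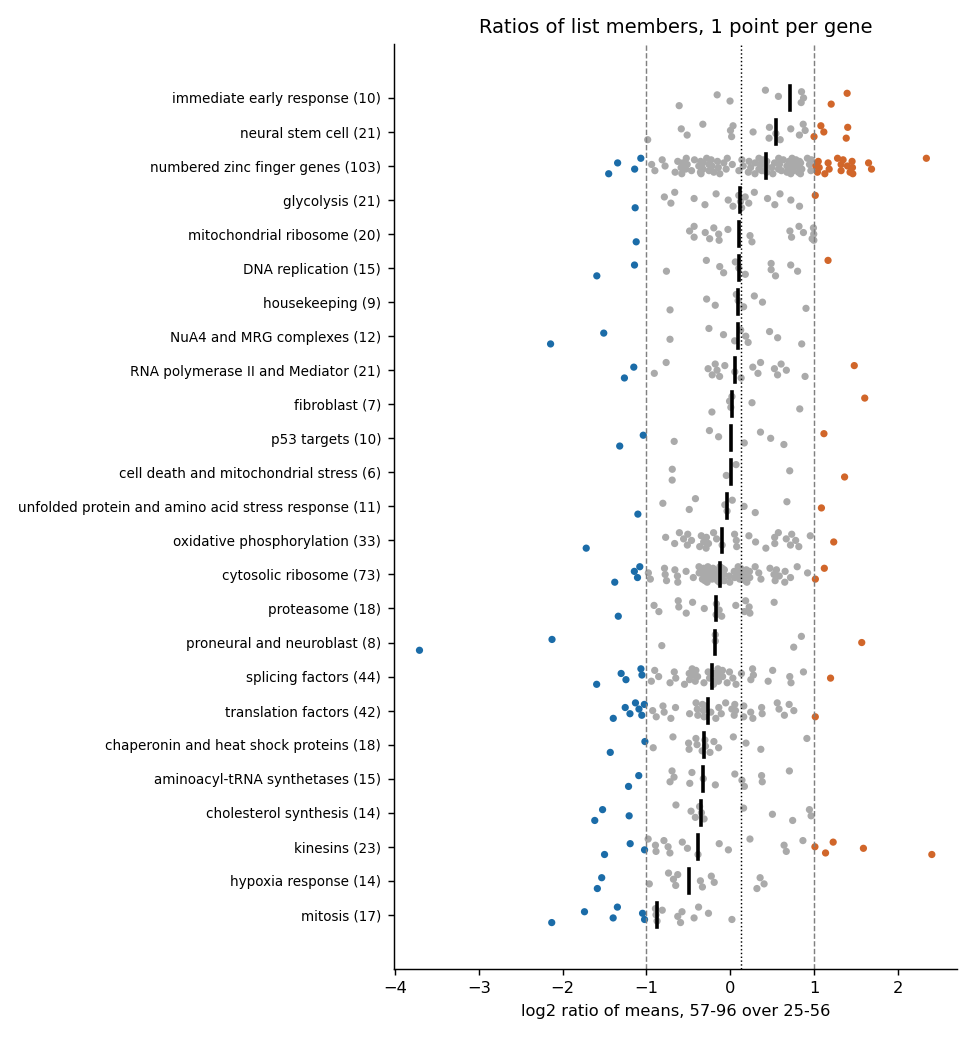
Log2 ratios of the set means (x axis, cells 57 to 96 over cells 25 to 56) for the kept members of 25 gene lists (y axis, with the number of members in brackets), 1 point per gene, with list medians as bars. Dashed lines mark 2-fold and the dotted line the median of all genes, 0.13. The list medians run from -0.87 (mitosis) to 0.71 (immediate early response), and most lists have members on both sides.

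Summed markers of other cell types overlapped between the sets. The summed fibroblast list was 277 to 2257 normalized counts in cells 25 to 56 (median 747) and 330 to 1909 in cells 57 to 96 (median 878), with SPARC at 0.01 and COL1A2 at -0.22, and COL6A1 at 1.61. In the fibroblast this sum was 55005. The pluripotency list was 12.2 to 261 (median 74.2) and 19.2 to 388 (median 81.2), and 5 of its 16 genes had no read in any iNSLC. LIN28A alone had medians of 49.2 and 56.4 in the sets. The vectors carry human LIN28, KLF4 and OCT4, and whether reads from the vectors entered this sum was not tested. The sum is therefore no measure of endogenous expression. The neural crest list was 12.1 to 212 (median 39.3) and 0 to 247 (median 48.4), and the glial list 4.44 to 97.0 (median 22.6) and 4.96 to 115 (median 24.0). The neural stem cell markers PAX6, SOX2, NES and VIM were present in both sets, at means of 22.5, 65.7, 173 and 2184 in cells 25 to 56 and 23.1, 121, 323 and 3188 in cells 57 to 96. The summed neural stem cell list had medians of 3051 and 4871 in the sets and was 7384 in the fibroblast. VIM alone had medians of 1874 and 2937 in the sets. The summed level thus does not set iNSLCs apart from that cell, and as VIM weighs so much in it, the sum says little about the other members. Of 9 reference genes, 0 passed the threshold, against 7.76% and 6.21% of all genes, which says little in so short a list. Their ratios ran from -0.72 (YWHAZ) to 0.90 (GUSB) with a median of 0.09. ACTB was at 0.16 and GAPDH at 0.29, and for GUSB 13 of 38 cells lay above all of the first set.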

How the data were processed

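Single-cell RamDA-seq libraries of 71 marmoset cells were analysed from a single table. The signal in the table deposited by the authors is normalized counts per gene, with a factor of its own for each cell. Per the submitters' processing notes the tools were STAR 2.6.0c, Trimmomatic, Seurat 3.0.0 and featureCounts 1.5.1, with no role stated. Build, annotation and use of strand are each not given in the sources used here, so genes that overlap an antisense partner are uncertain. In every cell, dividing by the smallest step gave whole reads to within 0.02 for 100% of non-zero values, and reads were recovered for depth only, not for a count test. The row without a gene name held at most 0.0137% of an iNSLC's total and was left out.

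Set means, log2 ratios (pseudocount 1, genes with a mean of at least 10) and summed list levels were computed with pandas 2.3.3 and numpy 2.4.6 in Python 3.11.15. Exact Clopper-Pearson intervals came from scipy 1.17.1 and plots from matplotlib 3.10.9. Intervals took the cells of a set as independent draws. As these cells share a culture, the intervals cover no difference between cultures or libraries. Reads carry no molecular tags, and no interval of reads is given. The log2 ratio of set means was tried on simulated counts with known fold changes, and the other steps were not. No test between the sets was made, because all iNSLCs have 1 source in the labels. The members, the boundary and the 29 gene lists were chosen with earlier results of these data known. The list of nuclear long noncoding RNAs had no gene in the table. Genes were named by a rule: the marker genes, the 10 genes with a symbol of their own that had the most extreme ratios on either side, and for each list the 4 members with the highest mean and the member with the largest ratio. KDELR3, HSPG2, AGRN, TMEM259, IGFBP2, DLL3 and list members outside the rule, such as RPS27, RPL35, P4HA1, PFKL and ZIC1, were chosen after their values were seen. Results for some single genes are not reported here. Transcript length, gene span and GC content were not analysed here.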

Additional observations from a re-analysis of the deposited data

Results flagged for a closer look

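The row without a gene name, which no comparison uses, held 63 reads in iNSLC cell 50, above the 3 reads that a count of 0 allows. Over the cells numbered 25 to 56 it held 4 to 63 reads with a median of 27, which is 0.00146% to 0.0137% of a cell's reads. Over the cells numbered 57 to 96 it held 1 to 13 reads with a median of 7.5, which is 0.000616% to 0.00729%. The ranges overlap, and what the row holds is not given in the sources used here.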

How the results depend on the processing

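The counts of genes at least 2-fold higher in cells 57 to 96 and in cells 25 to 56 (475 and 380) and the median of all genes (0.13) depended on the settings. They were 118 and 106 with a pseudocount of 10, 995 and 967 with a mean of at least 1, and 27 and 18 with a mean of at least 100, where the median was 0.28 and fewer genes were compared. With equal totals they were 272 and 558 with a median of -0.0401, and with medians over cells 1039 and 290 with a median of 0.26. With median-of-ratios size factors they were 387 and 408. Leaving out each run of 8 cell numbers in turn gave 436 to 578 and 343 to 437, with medians of 0.10 to 0.17. In the numbered zinc finger genes the median turned to -0.0108 with a mean of at least 1, and in the hypoxia genes to 0.0639 with a mean of at least 100. The kinesins turned to 0.27 with medians over cells, and leaving out a run of 8 cells gave -0.46 to 0.16 for the kinesins and -1.48 to 0.0484 for the mitosis genes, with the upper value without cells 41 to 48 in both. The median of all genes was itself 0.04 with a mean of at least 1 and 0.28 with a mean of at least 100. It was 0.26 with medians over cells and 0.17 without cells 41 to 48. CCNB1 turned to 0.29 with medians over cells. Apart from those values and the single-cell genes in the report, the list medians stayed within the spread of their members in all but the mitosis list, which was at -0.17 with medians over cells and at -1.48 without cells 81 to 88. REXO1 was at 0.95 with a pseudocount of 10. The cause was not tested. Length and GC content under another scaling were not run, because no reference of the files' build was used. No paired analysis was possible because the result comes from no test. A gene with few reads in a shallow cell cannot be told from a silent one.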
